A study of Mus musculus with 7 samples.

Results

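Very wide regions of open liver chromatin were examined, defined as merged stretches of 2000 bp or more in which DNase I, Benzonase and Cyanase each had at least 1 hotspot, a segment dense in cut ends. Hotspots of the 3 deposited lists on chromosomes 1 to 19 of mm9 were joined wherever they overlapped by 1 bp or more, which gave 90879 regions. Of these, 36943 held hotspots of all 3 lists and 2534 of them were 2000 bp or wider, which is 6.86% of the shared regions (95% Wilson interval 6.61 to 7.12, counting error only). The members were chosen by the measured width and overlap of the hotspots, so their width and their presence in all 3 lists are descriptions and not findings. A further 66 regions of at least 2000 bp lacked a hotspot of 1 or more lists and were not kept. The samples were livers of male C57BL/6 mice at 8 weeks of age, with no genetic change or drug in any group. For DNase I, nuclei were purified from fresh liver before digestion. For Benzonase and Cyanase, frozen liver was pulverized and digested directly with 0.25, 1 or 4 U of enzyme, a procedure named Tissue Accessible Chromatin (TACh). The 3 doses of each TACh enzyme were pooled into 1 list by the authors, the DNase I list pools the 2 libraries its header names, and no list carries replicates, tag numbers or scores. Enzyme and tissue preparation therefore cannot be told apart, the number of tags behind a hotspot is not in the lists, and no difference given here has a replicate error or a test.

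DNA wrapped around nucleosomes is shielded from nucleases, whereas promoters, enhancers and other bound regulatory elements are left open and are cut readily. Most open sites are short, the length of a few displaced nucleosomes, and longer ones are known from CpG island promoters, clusters of enhancers and heavily transcribed genes. CpG islands are stretches rich in unmethylated CpG dinucleotides at many housekeeping and developmental promoters. DNase I, Benzonase and Cyanase are endonucleases that cut both strands without a strict recognition sequence.

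The 6 sequences printed here show DNA on which the enzymes differed inside these regions. Each is the middle 150 bases of the longest stretch of its kind in 1 of the widest regions or of the regions that represent a splitting pattern, on the plus strand of mm9 from 5′ to 3′. None overlaps an annotated untranslated region of a transcript, and overlap with coding exons was not checked. Capitals mark CpG dinucleotides and the forkhead word TGTTTAC in either orientation. The 3 stretches in Benzonase and Cyanase hotspots but outside every DNase I hotspot lay 6220 bp from the TSS of Crlf2, which encodes the receptor of thymic stromal lymphopoietin, inside the midnolin gene Midn at 213 bp from a TSS (transcription start site), and in an intron of Dbp, which encodes a clock output factor.
Crlf2, chr5:109981586-109981735: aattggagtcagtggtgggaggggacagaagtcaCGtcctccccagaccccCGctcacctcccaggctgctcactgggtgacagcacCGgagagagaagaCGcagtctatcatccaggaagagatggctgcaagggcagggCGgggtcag
Midn, chr10:79613537-79613686: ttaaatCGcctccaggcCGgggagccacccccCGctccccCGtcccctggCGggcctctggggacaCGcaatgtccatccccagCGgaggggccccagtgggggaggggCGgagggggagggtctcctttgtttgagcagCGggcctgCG
Dbp, chr7:52961454-52961603: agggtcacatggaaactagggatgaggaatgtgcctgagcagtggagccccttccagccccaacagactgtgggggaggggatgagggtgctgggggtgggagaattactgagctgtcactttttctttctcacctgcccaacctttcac
The 3 stretches inside a DNase I hotspot alone lay in the exon of the noncoding RNA gene Neat1, in an intron of Dbp and in an intron of the forkhead factor gene Foxo3.
Neat1, chr19:5838544-5838693: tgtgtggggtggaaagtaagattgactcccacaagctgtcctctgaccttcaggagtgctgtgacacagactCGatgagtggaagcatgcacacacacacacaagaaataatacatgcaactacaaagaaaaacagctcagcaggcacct
Dbp, chr7:52964451-52964600: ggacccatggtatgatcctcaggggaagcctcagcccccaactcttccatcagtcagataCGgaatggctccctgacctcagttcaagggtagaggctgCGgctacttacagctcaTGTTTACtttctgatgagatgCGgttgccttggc
Foxo3, chr10:41993086-41993235: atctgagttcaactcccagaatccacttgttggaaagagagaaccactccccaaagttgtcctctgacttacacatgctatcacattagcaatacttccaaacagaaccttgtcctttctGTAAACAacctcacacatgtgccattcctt
The Midn sequence held 10 CpGs at 72.7% GC and the Crlf2 sequence 5 CpGs at 62.0% GC. The Neat1 sequence held 1 CpG at 47.3% GC and the Foxo3 sequence no CpG at 42.7% GC. The printed pair from Dbp kept that order in GC, at 56.0% in the TACh and 54.0% in the DNase I sequence. Its CpGs did not, with none in the TACh and 3 in the DNase I sequence. The whole stretches behind this pair followed the order in both. The TACh stretch (1139 bp) held 36 CpGs at 60.1% GC and the DNase I stretch (743 bp) 9 CpGs at 48.9% GC. The word TGTTTAC was present once each in the Dbp and Foxo3 sequences of the DNase I kind and in none of the 3 TACh sequences.

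The wide regions were mostly promoter regions of GC-rich DNA. A TSS of a protein-coding transcript lay inside 1839 of the 2534 (72.6%, 70.8 to 74.3), against 23.5% (23.0 to 23.9) of the 34409 shared regions under 2000 bp. Longer regions have more room for a TSS, but start sites were also denser in them, at 662 per megabase against 477 in the narrower shared regions and 17.8 over the 19 chromosomes. The midpoint, a measure free of width, lay within 2 kb upstream of a TSS in 39.5% of wide and 15.3% of narrower regions, in an exon in 17.3% and 10.4%, in an intron in 28.6% and 40.3%, and outside all protein-coding transcripts and the 2 kb on either side of them in 13.1% and 32.1%. Counted within 1 kb to either side of a TSS in place of 2 kb upstream, the promoter share of the wide regions was 70.1%. Start sites on both strands were present in 9.31% of the wide and 2.37% of the narrower regions. Among regions with a TSS the contrast was smaller, with 236 of 1839 wide and 816 of 8069 narrower regions. Mean GC was 56.2% ± 6.38 (SD over 2534 regions) against 49.6% ± 6.70, and exceeded the GC of the 5 kb on either side by 10.8 and 4.42 percentage points. The midpoint lay in a CpG island in 50.3% (48.3 to 52.2) of the wide and 18.4% (18.0 to 18.8) of the narrower regions. The wide regions covered 6.51 Mb, which was 16.0% of the bases of all shared regions. Their median width was 2370.5 bp (quartiles 2152 and 2764), and the widest had 10264 bp. They were spread over all 19 chromosomes, from 0.679 per megabase on chromosome 14 to 1.85 on chromosome 11.

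Membership turned on single bases at the threshold. Just inside it were regions of 2000 bp at the mitochondrial ribosomal protein gene Mrpl41 and at the choline transporter gene Slc44a1. Just outside were regions of 1999 bp near Rgs8 and on Prdm16. In all, 6 shared regions were exactly 2000 bp wide and 5 exactly 1999 bp.

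The 3 enzymes split the same regions to different degrees, over all 2534 Benzonase least and DNase I most. A region held 1 Benzonase hotspot in 81.0% of cases (79.4 to 82.5), 1 Cyanase hotspot in 71.5% (69.7 to 73.2) and 1 DNase I hotspot in 51.7% (49.8 to 53.7). Each list had exactly 1 hotspot in 916 regions (36.1%), and 666 regions (26.3%) held 2 DNase I hotspots and 1 of each TACh enzyme. In 1038 regions there were more DNase I than Benzonase hotspots, and in 245 there were fewer. In the narrower shared regions 96.8% had 1 DNase I hotspot, 97.9% 1 Benzonase hotspot and 97.3% 1 Cyanase hotspot. On average the hotspots covered 71.8% ± 21.0 of a wide region's width for DNase I, 92.2% ± 11.3 for Benzonase and 87.4% ± 13.3 for Cyanase (SD over 2534 regions). The widest Benzonase hotspot of a region had a median of 2159.5 bp, the widest Cyanase hotspot 2013.5 bp and the widest DNase I hotspot 1333.5 bp. Over the whole lists, the median hotspot width was nearly the same, at 651 bp for DNase I, 654 bp for Benzonase and 643 bp for Cyanase, whereas hotspots of 2000 bp or more made up 0.733% of the DNase I list, 2.98% of the Benzonase list and 2.37% of the Cyanase list. In 486 regions (19.2%) no list had a hotspot of 2000 bp, and the width came only from overlapping narrower hotspots. These 486 regions had a TSS in 65.4% of cases and a mean GC of 53.6% ± 5.68.

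**Figure D1:**
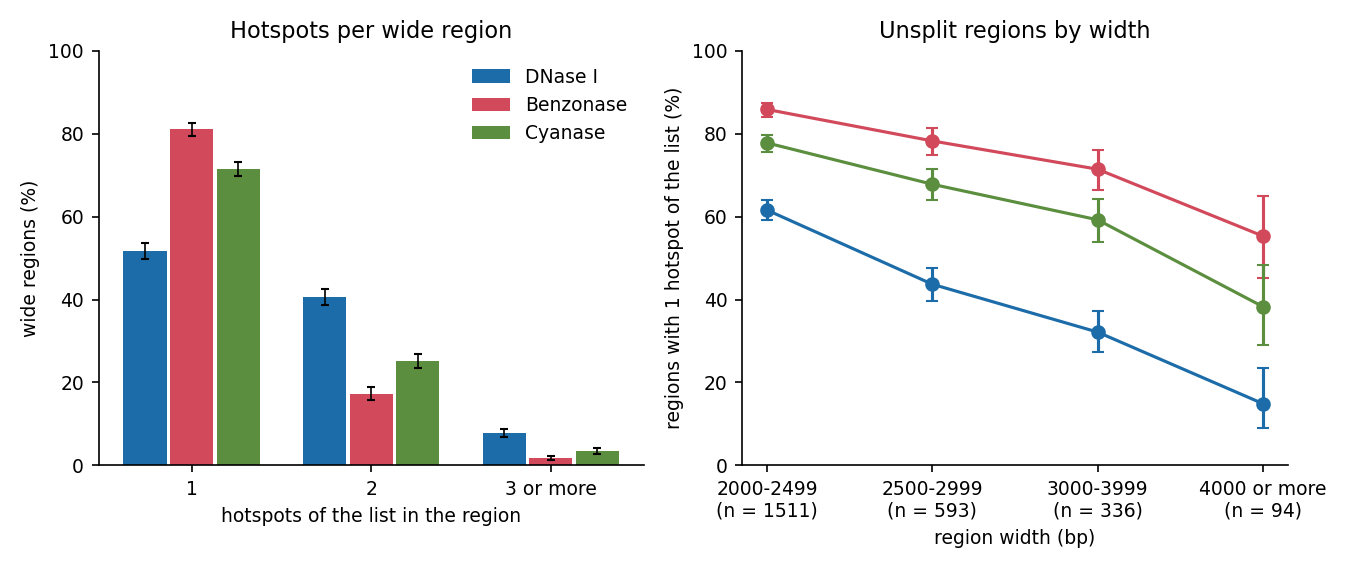
Left, percent of the 2534 wide regions (y axis) with 1, 2 or 3 or more hotspots of each list (x axis). Right, percent of regions with 1 hotspot of the list by region width in bp, with bars giving 95% Wilson intervals for counting error in both panels. Unsplit regions became fewer with width in all 3 lists, from 61.5% to 14.9% for DNase I and from 85.8% to 55.3% for Benzonase.

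The order of the enzymes was the same at every width, as the plot of unsplit regions shows. Among the 94 regions of 4000 bp or more, DNase I had 1 hotspot in 14.9% (9.08 to 23.5), Cyanase in 38.3% (29.1 to 48.4) and Benzonase in 55.3% (45.3 to 65.0). The intervals of the TACh enzymes overlapped each other there.

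Which enzyme bridged a region went with what the region was. A region was called spanned when 1 hotspot covered at least 90% of its width. Benzonase and Cyanase, but not DNase I, spanned 935 regions (36.9%), which had a mean GC of 59.8% ± 4.88 and a TSS in 84.0% of cases (81.5 to 86.2). DNase I alone spanned 225 regions (8.88%), which had a mean GC of 48.1% ± 5.34 and a TSS in 42.2% (36.0 to 48.8). Benzonase alone spanned 553, Cyanase alone 106, all 3 enzymes 81 and none 582. With a TSS inside, 48.7% of regions had 1 DNase I hotspot and 86.9% had 1 Benzonase hotspot. Without a TSS the shares were closer, at 59.9% for DNase I and 65.3% for Benzonase, and Cyanase stood at 77.5% with a TSS and 55.7% without, so that in the 695 regions without a TSS it was Cyanase that split most often. The Wilson intervals of DNase I (56.2 to 63.4) and Cyanase (52.0 to 59.3) overlapped there. Mean GC was 58.3% ± 5.21 in the regions with a TSS and 50.7% ± 5.85 in those without.

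**Figure D2:**
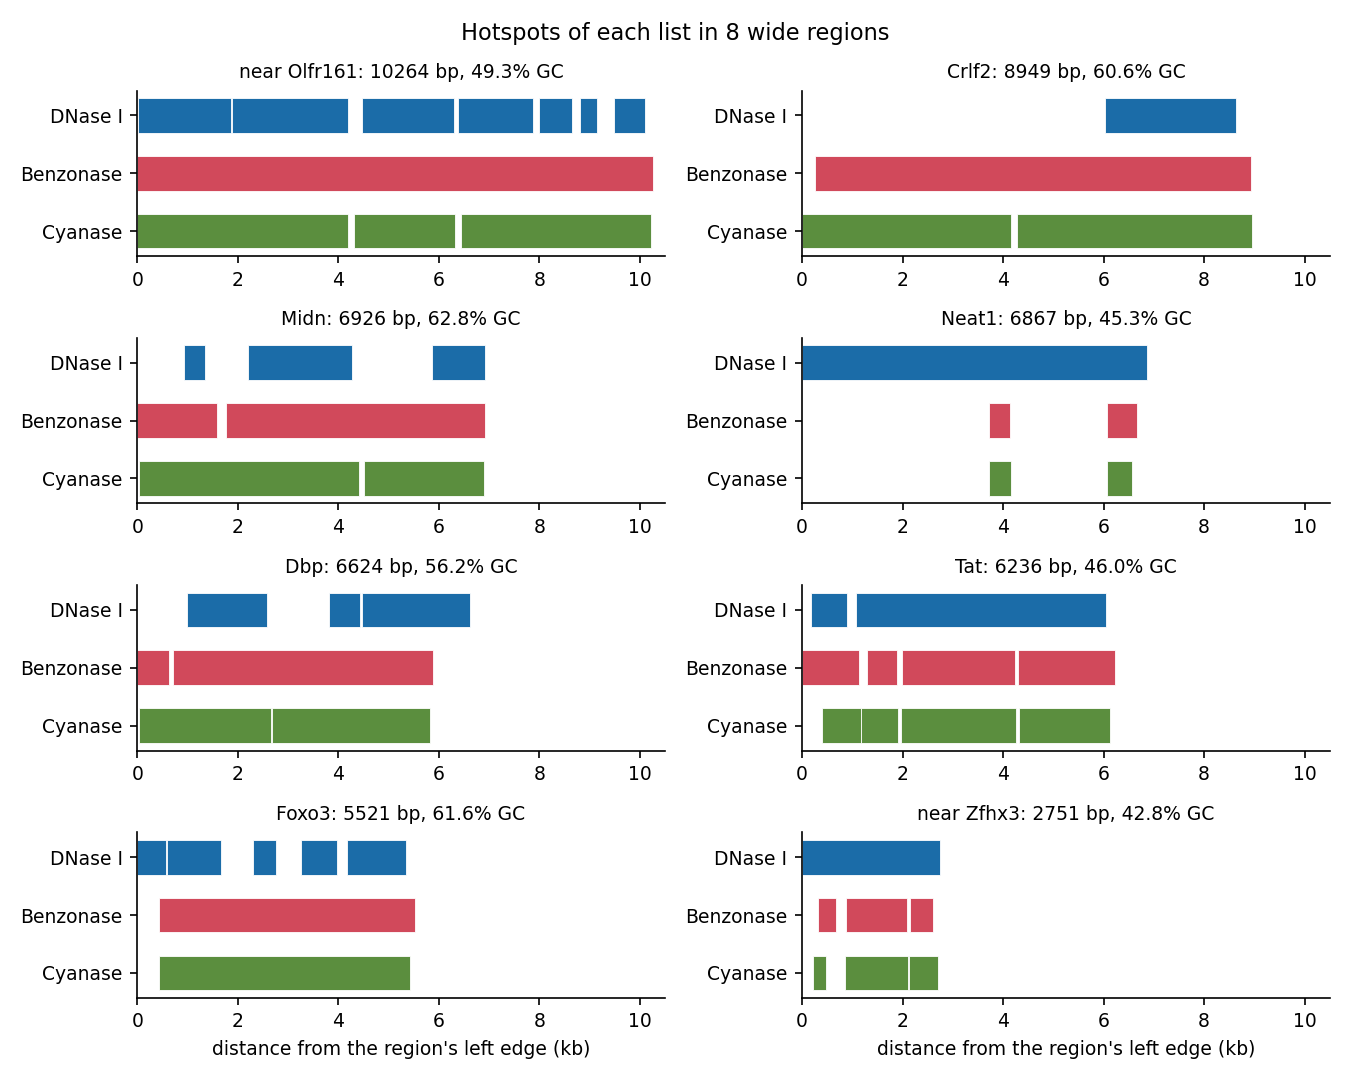
Hotspots of each list (bars, 1 row per enzyme) in 8 wide regions, drawn to 1 scale as distance in kb from the region's left edge on the chromosome. In Midn, Dbp and Foxo3 the DNase I row is the most broken, and in Neat1, Tat and the region near Zfhx3 it is the least broken.

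The map of 8 regions shows both kinds of splitting. At Foxo3, which encodes a forkhead transcription factor, a region of 5521 bp (chr10:41992943-41998463, 61.6% GC) contained 1 Benzonase hotspot of 5080 bp, 1 Cyanase hotspot of 4994 bp and 5 DNase I hotspots of 442 to 1162 bp. It was the widest of 83 regions with at least 3 DNase I hotspots and 1 of each TACh enzyme. The opposite pattern, 1 DNase I hotspot with 3 or more of both others, was found in 3 regions. The widest of those 3 lay 6276 bp from the nearest TSS, that of the zinc finger homeobox gene Zfhx3 (2751 bp, chr8:111229518-111232268, 42.8% GC), where DNase I covered the whole width in 1 hotspot and Benzonase and Cyanase had 3 each.

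Neat1, the noncoding RNA that scaffolds nuclear paraspeckles, carried the widest DNase I hotspot of the list. Its region (chr19:5836762-5843628, 6867 bp, 45.3% GC) was 1 DNase I hotspot from end to end. Benzonase had 2 hotspots of 421 and 587 bp and Cyanase 2 of 435 and 497 bp, which together covered 14.7% and 13.6% of the width. With 2 further wide regions on the gene, 50.5% of its 20771 bp lay in wide regions. At Tat, which encodes the tyrosine aminotransferase of amino acid breakdown, the region (chr8:112519234-112525469, 6236 bp, 46.0% GC) covered the 3′ end of the gene and lay 4828 bp from the nearest annotated TSS. DNase I had a hotspot of 708 bp and another of 4984 bp there, and Benzonase and Cyanase had 4 each.

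The other regions among the 12 widest leaned the other way. At Crlf2 (chr5:109979456-109988404, 8949 bp, 60.6% GC) 1 Benzonase hotspot of 8675 bp and a pair of Cyanase hotspots filled the region, and DNase I had 1 hotspot of 2622 bp, or 29.3% of the width. At Midn, whose product delivers nuclear proteins to the proteasome (chr10:79608423-79615348, 6926 bp, 62.8% GC), DNase I had 3 hotspots over 51.1% of the width and the TACh enzymes 2 each over 97.2% and 97.5%. At Dbp, a bZIP factor driven by the circadian clock (chr7:52958274-52964897, 6624 bp, 56.2% GC), DNase I had 3 hotspots and the others 2 each. Regions of 5656 to 6365 bp lay on Grb7, an adaptor of receptor tyrosine kinases, Gata6, a zinc finger transcription factor, Pvrl1, a cell adhesion receptor, Ddit3, the stress-induced factor CHOP, and Dlec1. DNase I covered 45.5 to 66.0% of these 5 regions and Benzonase 91.7 to 99.1%.

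A pair of the 12 widest regions stood apart. The widest of all (chr16:3231407-3241670, 10264 bp) lay on no annotated gene, 350728 bp from the nearest TSS, that of Olfr161. It had 49.3% GC against 32.9% in its flanks, an observed to expected CpG ratio of 0.0606, and 7 DNase I hotspots, the most of any wide region. The region on AY036118, a gene not annotated as protein-coding (chr17:39979590-39985946, 6357 bp), was spanned by 1 hotspot of each enzyme, and its CpG ratio was 0.965. Of the 31-base words of these regions, 16.6% and 16.8% occurred more than once on chromosomes 1 to 19, against a median of 0.306% over the wide regions (quartiles 0 and 1.85). The share exceeded 50% in 3 of the 2534 regions. Whether repeated sequence bears on the hotspots called there was not tested, and words counted in the assembly cannot show copies that the assembly collapses.

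Base composition differed in opposite directions at the breaks of the 3 lists. Gaps between neighbouring DNase I hotspots of a region numbered 1433 and had a median of 217 bp (quartiles 90 and 434). They had a mean GC of 60.4% ± 11.9 against 56.3% ± 6.06 in the hotspots beside them (SD over gaps), and 66.3% (63.8 to 68.7) were richer in GC than those hotspots. The 519 Benzonase gaps had a median of 97 bp and a mean GC of 43.7% ± 12.3 against 52.0% ± 5.67 beside them, and 19.5% (16.3 to 23.1) were richer. The 808 Cyanase gaps, with a median of 111 bp, had 47.9% ± 12.8 against 53.7% ± 6.38, and 27.4% (24.4 to 30.5) were richer. Inside these regions, on average, DNase I hotspots broke at GC-richer DNA and TACh hotspots at GC-poorer DNA than they covered on either side. The SDs overlap in all 3 lists, so a single gap cannot be assigned to a list by its GC. The mean difference of gap minus neighbours was greater in size in regions with a TSS. There it was 4.84 points for DNase I, -10.7 for Benzonase and -7.17 for Cyanase. In regions without a TSS it was 1.78 ± 8.36 for DNase I, -6.00 ± 11.3 for Benzonase and -3.99 ± 11.1 for Cyanase (SD over gaps). A gap must be crossed by another list for its region to hold together. Of the DNase I gaps, 93.9% lay inside 1 Benzonase hotspot, and of the Benzonase gaps, 74.8% inside 1 DNase I hotspot. The merging rule thus selects the gaps by what the other lists cover. They are not a free sample of where each enzyme breaks, and their GC is a description. A CpG island overlapped 51.8% of the DNase I gaps, 2.50% of the Benzonase gaps and 11.9% of the Cyanase gaps.

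**Figure D3:**
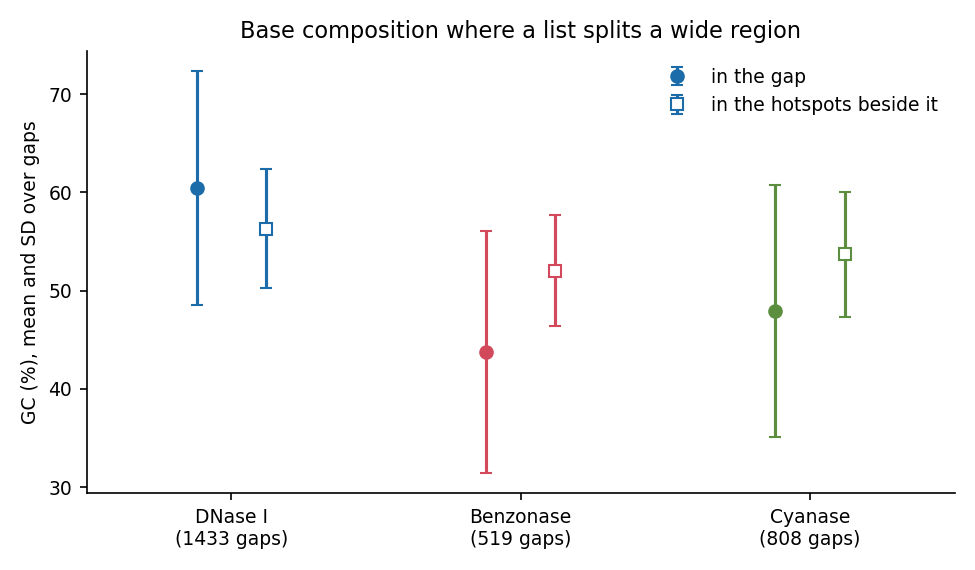
Mean GC percent (y axis) with SD over gaps, in the gaps between hotspots of 1 list (filled circles) and in the hotspots beside them (open squares), for each of the 3 lists (x axis). The DNase I gaps lie above their neighbours at 60.4% against 56.3%, and the Benzonase and Cyanase gaps lie below theirs.

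The bases that only some enzymes reached showed the same contrast. Of all bases in wide regions, 62.5% lay in hotspots of all 3 lists and had 56.8% GC. Bases in a Benzonase or Cyanase hotspot but no DNase I hotspot made up 28.3% and had 59.3% GC. Bases in a DNase I hotspot alone made up 5.89% and had 41.9% GC. In the 375 regions with at least 150 bp of both kinds, the TACh bases were richer in GC in 367 (97.9%), by 17.4 percentage points on average ± 10.2 (SD over regions). Short sequence words that resemble factor sites also differed between these bases. The GC box GGGCGG, counted on both strands, occurred 2.24 times per kb in the bases without DNase I and 0.172 times per kb in the bases with DNase I alone. The forkhead word TGTTTAC occurred 0.0781 and 0.274 times per kb, and the word TTGCNNAA of C/EBP factors 0.248 and 0.686 times. In the bases of all 3 lists, these 3 words occurred 2.54, 0.147 and 0.447 times per kb. GGGCGG was thus more frequent in the bases of all 3 lists than in the pooled bases without DNase I, although GC was lower. This did not hold for the bases that Benzonase and Cyanase both covered without DNase I, with 2.58 per kb. Bases of Benzonase alone had 0.704 and of Cyanase alone 0.633 per kb. Words that cross the end of a stretch were not counted. In the central 300 bp, GGGCGG was present in 47.3% of wide and 21.9% of narrower regions, TGTTTAC in 3.12% and 6.90%, and TTGCNNAA in 8.52% and 17.8%. A word is not a bound site, and these words differ in GC themselves.

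Around the TSS the lists parted downstream. This was seen in the 1594 wide regions that held the start sites of a single gene, aligned at the outermost upstream start site. A DNase I hotspot covered the TSS in 88.0% of these regions (86.3 to 89.5), a Benzonase hotspot in 99.6% and a Cyanase hotspot in 99.3%. At 500 bp downstream DNase I covered 43.4% (40.9 to 45.8), Benzonase 97.8% and Cyanase 94.5%. DNase I coverage then rose slightly to 46.6% at 900 bp, where Benzonase stood at 83.9%. Of the regions without DNase I at 500 bp, 352 (22.1% of all) had DNase I hotspots on either side of that point, and 505 (31.7%) had them only upstream. Mean GC was 68.4% at the TSS and 64.6% at 500 bp, and it fell to 56.3% at 900 bp. At 500 bp upstream, mean GC was 52.5%. The narrower shared regions with a TSS also lost DNase I coverage sooner, with 27.0% at 500 bp downstream against 72.3% for Benzonase and 64.6% for Cyanase.

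**Figure D4:**
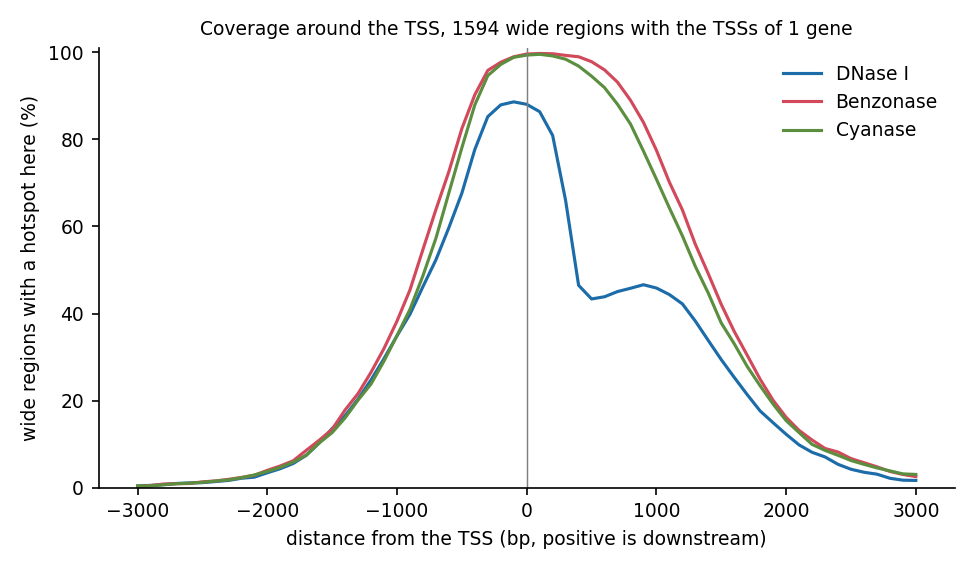
Percent of 1594 wide regions with a hotspot of each list (y axis) at each distance in bp from the TSS (x axis, positive is downstream). DNase I falls from 88.0% at the TSS to 43.4% at 500 bp downstream and stays near that level to 1000 bp, and Benzonase and Cyanase stay above 90% there until 600 bp.

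The regions reached farther into the gene than upstream of it. The downstream edge lay a median of 1467.5 bp from the TSS and the upstream edge 941 bp, and 71.3% (69.0 to 73.4) reached farther downstream. The choice of the outermost start site favours this order. In the 796 regions with a single start position the medians were 1385.5 and 1017 bp, and 66.5% (63.1 to 69.7) reached farther downstream. The lists differed in the 1594 regions. The outer edges of Benzonase hotspots reached farther downstream in 72.0%, those of Cyanase in 70.9% and those of DNase I in 56.9% (54.5 to 59.3).

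Of 21418 protein-coding genes of the GENCODE annotation, 2076 (9.69%) had a TSS in a wide region, and a wide region overlapped the body of 2403 (11.2%). Of the 10482 genes with a TSS in any shared region, 19.8% (19.1 to 20.6) had it in a wide region. A protein-coding gene was overlapped by 86.6% of the wide regions, 2.60% met other annotated genes only, and 10.8% met none. Of 1232 lincRNA genes, 11.1% had a TSS in a wide region.

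In 3 of the gene lists, the whole Wilson interval of the share with a TSS in a wide region exceeded both reference shares. These were the 9.69% of all coding genes and the 19.8% of those with a TSS in a shared region. The lists were chosen with earlier results of these data known, so the shares are descriptions. Of 28 liver-enriched transcription factor and nuclear receptor genes, 18 had a TSS in a wide region (64.3%, 45.8 to 79.3). Wide regions with the TSS lay at Nr3c1, the glucocorticoid receptor gene, and Foxa2, which encodes a pioneer forkhead factor. Nr1i2, the pregnane X receptor gene, had a wide region of 2213 bp at its TSS and another of 3212 bp in an intron at 6189 bp from it. The region of 4404 bp at Nr1i3, the constitutive androstane receptor gene, held the 3′ end of that gene and the TSS of its neighbour Tomm40l. The Nr3c1 region (3630 bp, 63.8% GC) held 1 hotspot of each enzyme. Of 18 clock and clock output genes, 12 had a TSS in a wide region (66.7%, 43.7 to 83.7), among them Dbp, Bhlhe40, a repressor of clock genes, and Clock, Nfil3 and Npas2, which encode clock transcription factors. The Bhlhe40 region (4137 bp) had 2 DNase I hotspots and 1 of each TACh enzyme. Of 30 immediate early and stress response genes, 18 had a TSS in a wide region (60.0%, 42.3 to 75.4). Their widest regions were at Gadd45g, a stress sensor (4789 bp, with 5 DNase I hotspots, 1 of Benzonase and 2 of Cyanase), Jun, a subunit of AP-1 (4650 bp), Myc, a growth regulator (4485 bp), Klf10, a zinc finger factor (4226 bp), Sgk1, a kinase induced by glucocorticoids (3930 bp), and Irs2, an adaptor of the insulin receptor (3669 bp). Sgk1 alone of these 6 had more Benzonase than DNase I hotspots, with 1 DNase I hotspot over 96.6% of the width, 3 of Benzonase and 2 of Cyanase.

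**Figure D5:**
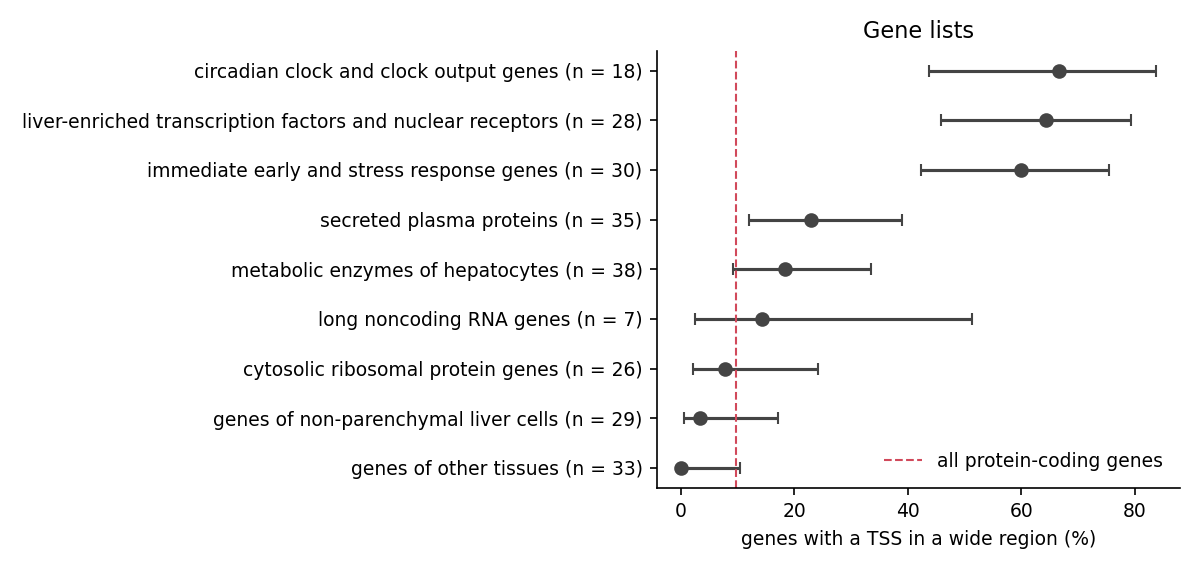
Percent of the annotated genes of each list (y axis, with n) that have a TSS in a wide region (x axis), with 95% Wilson intervals for counting error. Clock genes, liver-enriched factors and immediate early genes lie at 60.0 to 66.7%, against 9.69% of all protein-coding genes (dashed line). The lists were chosen with earlier results of these data known.

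Genes of liver products had a TSS in a shared region in every case, and several had a wide region at the 3′ end. All 35 genes of secreted plasma proteins had a TSS in a shared region, against 48.9% of all coding genes. Of these 35, 8 had it in a wide region (22.9%, 12.1 to 39.0). All 38 genes of hepatocyte metabolic enzymes had a TSS in a shared region, and 7 in a wide region (18.4%, 9.22 to 33.4). Both shares were near the 19.8% of all genes with a TSS in a shared region, which lies inside both intervals. The widest with the TSS lay at Apoa1 (4409 bp) and Apoc1 (3373 bp), which encode apolipoproteins, among the plasma protein genes, and among the enzyme genes at Cpt1a of fatty acid oxidation (3121 bp) and at Fah of tyrosine breakdown (2834 bp). A wide region overlapped the body of 14 plasma protein and 13 enzyme genes. In 4 plasma protein genes the region covered the 3′ end of the gene and no start site: Alb, albumin, Ttr, the thyroxine carrier, Ahsg, a fetuin, and Serpina3k, a protease inhibitor. The same held for 5 enzyme genes, among them Tat, Pck1 of gluconeogenesis, Gnmt, a glycine methyltransferase, and, named after its values were seen, Cyp2e1. Among all 21418 coding genes, 92 (0.430%) had the 3′ end but no TSS in a wide region. The regions at the ends of Ttr, Serpina3k and Alb had 44.6%, 46.0% and 40.6% GC. The Ttr region (3407 bp) was 96.4% covered by 1 DNase I hotspot, against 34.5% for Benzonase and 33.8% for Cyanase. The Alb region (3480 bp) went the other way, with 48.8% for DNase I, 93.2% for Benzonase and 99.0% for Cyanase. Of the 695 wide regions without a TSS, 46 (6.62%) held the 3′ end of a coding gene, against 1.29% of the narrower ones. Wider regions have more room for a gene end, and these shares are not adjusted for width.

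The counts in the remaining lists are read against all coding genes. Of those, 9.69% had a TSS in a wide region and 48.9% in any shared region. All 26 annotated genes of cytosolic ribosomal proteins had a TSS in a shared region, and 2 in a wide region (7.69%, 2.14 to 24.1), Rpl7 and Rpl37. Of 7 long noncoding RNA genes, Neat1 had a TSS in a wide region (14.3%, 2.57 to 51.3). Both intervals include the 9.69% of all coding genes. Of 29 genes of non-parenchymal liver cells, 4 had a TSS in a shared region and 1, the bile duct factor gene Sox9, in a wide region. Of 33 genes of other tissues, 1 had a TSS in a shared region and none in a wide region. Wide regions of 2266 and 2013 bp nevertheless lay inside the neuronal gene Rbfox3. The start sites of 8 of 8 hepatocyte markers lay in hotspots of all 3 lists, as did those of 2 of 16 markers of other liver cells. Of these 16, 7 had a start site in a DNase I hotspot, 6 in a Benzonase hotspot, 8 in a Cyanase hotspot and 4 in none. Which cells of the liver carried a hotspot cannot be told apart in whole tissue.

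Few genes held several wide regions. Of the 2403 coding genes, 2260 had 1, 132 had 2 and 11 had 3 or more. Sfi1, which encodes a centrosome protein, had 9 wide regions over 47.2% of its 61614 bp, of 2088 to 4660 bp each. Their GC ran from 44.0% to 53.8%, and 1.77 to 26.4% of their 31-base words occurred more than once on chromosomes 1 to 19. DNase I had 1 to 3 hotspots in each of them, Benzonase 1 to 4 and Cyanase 1 to 3. Copies collapsed in the assembly were not tested for at this gene either. Chd9, a chromatin remodeler, and Arhgap26, a GTPase activator, had 4 each, Bach2, a bZIP repressor, 3, and Pvrl1 2. The gene model Gm20388, 4434882 bp long, spans many other genes and overlapped 14 wide regions. The lincRNA models Gm16736 and Gm17627 also overlapped 4 each.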

How the data were processed

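The deposited files are 3 lists of hotspot positions, given as start and end on mm9 with no further value. Per the methods and the file headers, the authors aligned tags with Eland or Bowtie (versions not given in the sources used here) and pooled the libraries of an enzyme. Their hotspot calls allowed 0% false discoveries, were adjusted for input and were left unmerged. The methods also name a threshold on tag density, set at the mode. Over all chromosomes the lists hold 72286 DNase I, 60910 Benzonase and 57675 Cyanase hotspots. For each enzyme this is more than the authors report, so the lists are not the hotspot sets counted in their article. The lists give no tag counts, so the depth behind a hotspot is not reported here. Sequence and genes came from NCBIM37, the assembly that mm9 names, and its GENCODE M1 annotation, and 2 Cyanase hotspots run past a chromosome end. Regions, splits, gaps and shares were computed in Python 3.11.15 with numpy 2.4.6, pandas 2.3.3, scipy 1.17.1 and numba 0.67.0. Intervals are 95% Wilson intervals for counting error. TSSs are those of protein-coding transcripts. CpG islands are segments of at least 200 bp with GC over 50% and an observed to expected CpG ratio over 0.6. The merging was tested on simulated lists. Because each enzyme is 1 pooled list, no test was run.

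Members and gene lists were chosen with earlier results of these data known. Genes named are those at the 12 widest regions, the 6 protein-coding genes with the most bases in wide regions, up to 6 a list by region width, the widest region of each splitting pattern, the nearest regions on either side of the threshold, and Tat. Not analysed here were Otc, Hmgcs1, Ciart, Tsc22d3, Kcnq1ot1, Adgre1, Vsig4 and Gata1. Some genes that the rule would name are not reported here. Alternatives were other joining rules, widths, coverage minimums, transcript sets and island definitions. The 10% limit on repeated words was chosen after seeing the data.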

Additional observations from a re-analysis of the deposited data

Results flagged for a closer look

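The X chromosome is outside the members, yet all 3 lists have hotspots on it. Merged by the same rule, they gave 781 shared regions, of which 57 were 2000 bp or wider (7.30%, 95% Wilson interval 5.68 to 9.34, counting error only). The widest had 5094 bp. DNase I had 1 hotspot in 23 of the 57, Cyanase in 39 and Benzonase in 47. No control sample was used here to set a level for these regions.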

How the results depend on the processing

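DNase I had the fewest unsplit regions and Benzonase the most under the alternatives run, except with an overlap of 50% of both hotspots, where Cyanase had the fewest. The bases without DNase I stayed richer in GC than those with DNase I alone under all alternatives run. With an overlap of 50% of both hotspots required, 1337 regions and 1092 genes were left and 99.8% (DNase I), 100% (Benzonase) and 99.6% (Cyanase) were unsplit, since 2 hotspots of 1 list can then seldom join. A TSS lay in 70.8%, mean GC was 55.7%, and the GC of the bases without DNase I exceeded that of the bases with DNase I alone by 13.7 points. With hotspots within 150 bp also joined, unsplit shares were 39.8%, 60.2% and 54.6%, a TSS lay in 67.9%, mean GC was 54.8%, the midpoint lay in an island in 42.3%, and the difference was 16.0. At 3000 bp or wider, 430 regions and 361 genes remained, with unsplit shares of 28.4%, 67.9% and 54.7%, a TSS in 75.6%, an island in 44.0% and a difference of 16.0. Without hotspots in the lowest width quartile, unsplit shares were 59.6%, 84.5% and 76.5%. With each list covering at least 50%, 45.1% had 1 DNase I hotspot, mean GC was 55.4%, an island lay in 46.9%, and the difference was 16.3. Hotspots of 1 list less than 150 bp apart counted as 1 gave 67.4%, 93.5% and 88.3%. All transcripts put a TSS in 76.4%, the stricter island rule gave 48.1%, the central 300 bp had 61.1% GC, and stretches of 150 bp or more differed by 19.1. The cause of these shifts was not tested. Without regions with over 10% of repeated words, 2452 regions remained and none of 14 results moved. No paired analysis was possible because each enzyme is 1 pooled list.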
